A study of Mus musculus with 12 samples.

Results

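The genes described are 10 genes of the small intestinal enterocyte, the absorptive cell that lines the villi: Sis, Alpi, Slc10a2, Lct, Apoa1, Apoa4, Fabp1, Fabp2, Fabp6 and Mttp. They are 10 of 19935 genes measured on 12 arrays of mouse colon samples, and each was read by 1 probe set that carried its symbol alone. The members were selected on a gene function and with values of these same arrays already known, so their levels and differences are given as a description and no p-value is attached to a single member. The study asked what the tight junction protein claudin-2 does in the intestinal lining at rest and during chemical injury. Male mice aged 8 to 10 weeks either carried a Villin-Claudin-2 transgene (TG) or were wild-type littermates (WT). Villin is a structural protein of the brush border, and its promoter is active along both the small intestine and the colon. Each genotype received either normal drinking water or 4% (w/v) dextran sulfate sodium (DSS), which injures the colonic epithelium and causes colitis, over 10 days. That gave 4 groups of 3 arrays: WT water, TG water, WT DSS and TG DSS. The labels name colon epithelial cells as the material, without saying which stretch of colon was taken or whether the 3 arrays of a group are separate animals. The p-values therefore set a difference only against the spread of these samples, and that spread may be technical. It is pooled over all 4 groups, so the WT DSS arrays enter it in every comparison.

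The enterocyte takes up food across a dense border of microvilli. Its surface enzymes finish the digestion of sugars, peptides and phosphate esters, its transporters bring in the products, and inside the cell fatty acid-binding proteins and apolipoproteins move fat into chylomicrons for export. Bile acids are recovered in the ileum by a dedicated route of uptake, carriage and export. The colon has largely finished with these substrates and absorbs mainly salt, water and short-chain fatty acids, so most of the 10 genes are known for being strong in the small intestine and weak in the colon.

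Each value below is the log2 signal of a gene on 1 array minus that gene's median over the 12 arrays. A value of 0 is therefore the middle array and a value of 1 is a doubling of it. The values hold no absolute level, so neither the presence of a member in normal colon nor the presence of epithelial markers could be checked, and no gene can be ranked above another by its level.

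The proximal promoters of the 4 members whose values moved most between arrays are shown because the same 4 genes carry the main pattern below. All 10 members matched the RefSeq promoter table, and the windows are the 250 bases before the annotated start site in the mouse build GRCm38.p6: Alpi at chr1:87101607-87101856 on the minus strand, Sis at chr3:72967864-72968113 on the minus strand, Slc10a2 at chr8:5105288-5105537 on the minus strand and Fabp2 at chr3:122894822-122895071 on the plus strand. Sequences run 5′ to 3′ along the gene's strand. Capitals mark matches, on either strand, to short motifs associated with intestinal transcription factors: CAAAGTCCA and AGTCCA for HNF4, CCATAAA and TTTAT for CDX, GTTAATNAT for HNF1 and AGATAA for GATA.
Sis: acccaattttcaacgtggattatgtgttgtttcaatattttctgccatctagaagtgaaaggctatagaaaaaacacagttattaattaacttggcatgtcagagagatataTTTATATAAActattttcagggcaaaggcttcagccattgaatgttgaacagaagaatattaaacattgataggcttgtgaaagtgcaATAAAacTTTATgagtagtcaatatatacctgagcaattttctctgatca
Alpi: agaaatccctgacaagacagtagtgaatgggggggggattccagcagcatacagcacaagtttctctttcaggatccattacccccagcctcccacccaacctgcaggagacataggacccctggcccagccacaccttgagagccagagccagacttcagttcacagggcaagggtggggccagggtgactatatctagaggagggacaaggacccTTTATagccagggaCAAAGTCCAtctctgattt
Slc10a2: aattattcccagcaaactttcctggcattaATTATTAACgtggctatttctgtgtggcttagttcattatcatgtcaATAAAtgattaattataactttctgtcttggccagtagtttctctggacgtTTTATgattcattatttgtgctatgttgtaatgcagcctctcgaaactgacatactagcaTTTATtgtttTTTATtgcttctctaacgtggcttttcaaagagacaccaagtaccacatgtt
Fabp2: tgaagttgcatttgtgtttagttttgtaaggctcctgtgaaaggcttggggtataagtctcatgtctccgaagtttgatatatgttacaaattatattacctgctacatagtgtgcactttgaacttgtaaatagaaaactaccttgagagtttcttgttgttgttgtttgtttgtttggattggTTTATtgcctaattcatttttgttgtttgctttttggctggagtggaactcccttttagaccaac

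Of these 4 windows, that of Alpi held the long HNF4 motif, with its first base at -19 from the start site, and 0.384% of the 32851 RefSeq promoter windows of the same length held it. The Slc10a2 window held the HNF1 motif with its first base at -220, on the opposite strand, against 0.737% of all windows. All 4 windows held TTTAT, but so did 37.3% of all windows. TTTAT lies within the reverse of CCATAAA and shares letters with the TATA box, so the 2 cannot always be told apart. Over the 10 members, 7 held TTTAT, 3 held AGTCCA (Alpi, Apoa1 and Fabp1, against 11.5% of all windows), 1 held CCATAAA (Fabp1, against 2.43%) and 1 held AGATAA (Lct, against 9.99%). A match is a description of letters in this window and not a binding site.

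The arrays of the WT DSS group stood apart from one another before any member was considered. In WT DSS replicates 1, 2 and 3, 677, 3795 and 1035 of 28815 probe sets were over 1 log2 unit away from their 12-array median, against 53 to 285 in the TG DSS arrays and 22 to 91 in the water arrays. On WT DSS replicate 2 all 15 pan-epithelial markers were below -1, with a median of -2.18, while the medians of neutrophil, macrophage and fibroblast markers were 3.72, 2.22 and 2.08. On WT DSS replicate 3 those 4 medians were 0.06, 0.32, -0.08 and -0.18. Cldn2, the gene of the transgene, did not separate the genotypes at water: it was -0.04, 0.02 and 0.11 on the WT arrays and 0.36, 0.18 and -0.02 on the TG arrays. Member differences that rest on the WT DSS group are given with and without single arrays of it where these moved them.

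The 10 members fell into a set of 4 that stood far from their medians on single arrays and a set of 6 that stayed near their medians. Sis, Alpi, Slc10a2 and Fabp2 were all above 1 on WT DSS replicate 3 and on no other array. Across all genes, 375 of 19935 (1.88%) were above 1 on that array. The other 6 members (Lct, Apoa1, Apoa4, Fabp1, Fabp6 and Mttp) lay between -0.49 and 0.73 on every array. The plot of the 10 genes by group shows this division.

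**Figure D1:**
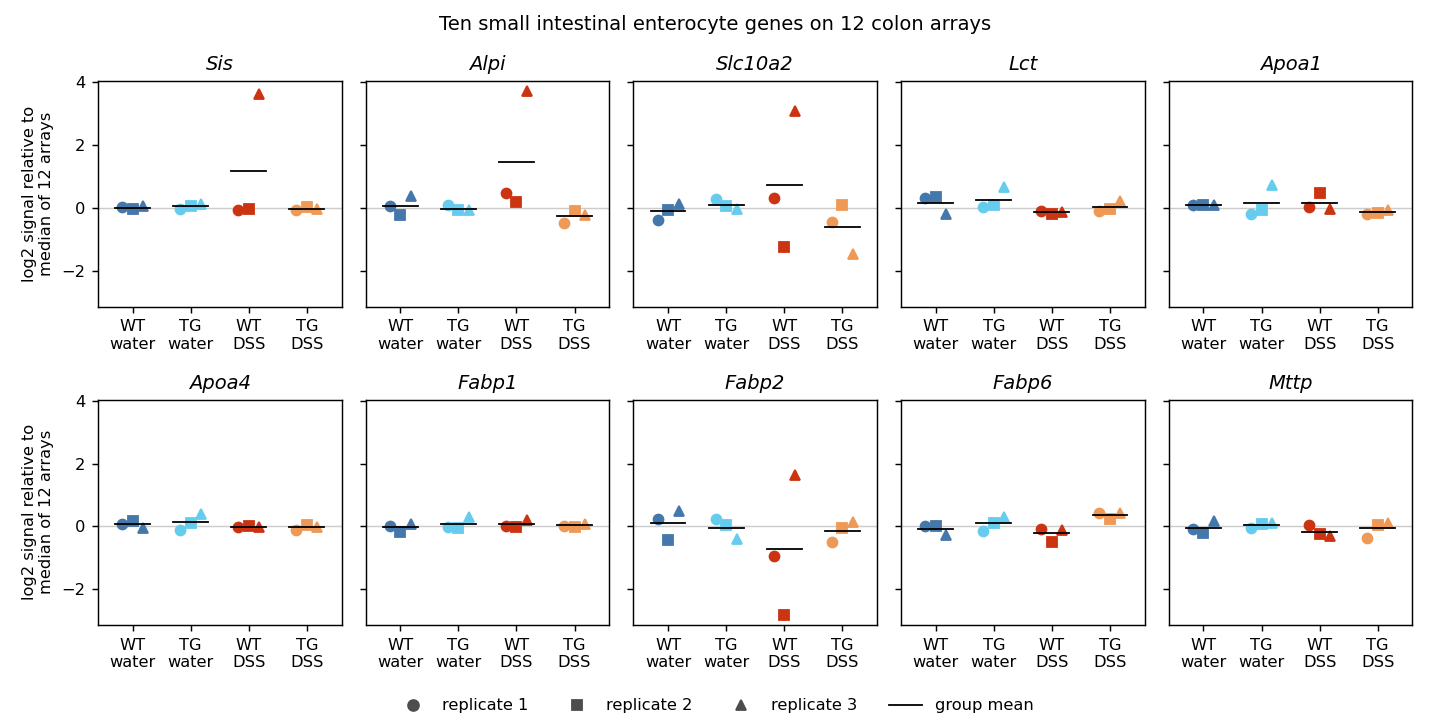
Each panel shows 1 gene, with the log2 signal minus the gene's 12-array median on the y axis, the 4 groups on the x axis, 1 point per array (the shape gives the replicate number) and a line at the group mean. Sis, Alpi, Slc10a2 and Fabp2 have 1 high point, at 1.63 to 3.71, on WT DSS replicate 3, and the other 6 genes stay between -0.49 and 0.73.

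Among the brush border enzymes, Sis encodes sucrase-isomaltase, which splits sucrose and the branch points of starch. It was 0.02, -0.04 and 0.05 on the WT water arrays, -0.02, 0.05 and 0.12 on the TG water arrays, -0.07, -0.03 and 3.62 on the WT DSS arrays and -0.06, 0.03 and -0.05 on the TG DSS arrays. Only WT DSS replicate 3 was high, 12.2-fold above the mean of the WT water arrays, and the 11 other arrays lay between -0.07 and 0.12. On that array Sis ranked 20 from the highest of the 19935 genes. The SD of Sis over the 9 arrays outside the WT DSS group was 0.06, the smallest of the members, and the median SD of all genes over those arrays was 0.15.

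Alpi encodes intestinal alkaline phosphatase, which removes phosphate from nucleotides and from bacterial lipopolysaccharide at the brush border. It was 0.07, -0.24 and 0.39 on the WT water arrays, 0.08, -0.08 and -0.07 on the TG water arrays, 0.47, 0.19 and 3.71 on the WT DSS arrays and -0.47, -0.09 and -0.21 on the TG DSS arrays. WT DSS replicate 3 was again the only high array, 12.4-fold above the WT water mean and 18 from the highest of all genes. The WT DSS arrays overlapped the WT water arrays, and the 3 TG DSS arrays were the lowest of the 12 together with WT water replicate 2. Alpi lies between the related phosphatase genes Alppl2 and Akp3 on chromosome 1, whose values on WT DSS replicate 3 were 0.21 and -0.16.

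Lct encodes lactase, the milk sugar enzyme of the brush border, which is best known from the jejunum. Its values were 0.30, 0.36 and -0.18 on the WT water arrays, 0.02, 0.08 and 0.65 on the TG water arrays, -0.09, -0.18 and -0.14 on the WT DSS arrays and -0.10, -0.02 and 0.23 on the TG DSS arrays. No array stood far from the rest, the groups overlapped, and WT DSS replicate 3 lay in the middle of its group.

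Slc10a2 and Fabp6 are consecutive steps of ileal bile acid recovery. Slc10a2 encodes the sodium-dependent transporter that takes bile acids in from the lumen. It was -0.38, -0.07 and 0.14 on the WT water arrays, 0.29, 0.05 and -0.05 on the TG water arrays, 0.32, -1.24 and 3.08 on the WT DSS arrays and -0.45, 0.10 and -1.48 on the TG DSS arrays. WT DSS replicate 3 was 9.09-fold above the WT water mean, and WT DSS replicate 2 was 2.2-fold below it. TG DSS replicate 3 was the lowest array, where 0.166% of all genes were below -1. Without the WT DSS arrays Slc10a2 had an SD of 0.54, the largest of the members.

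Fabp6 encodes the ileal bile acid-binding protein that carries bile acids through the cell. It was 0.00, 0.00 and -0.26 on the WT water arrays, -0.15, 0.12 and 0.31 on the TG water arrays, -0.07, -0.49 and -0.11 on the WT DSS arrays and 0.42, 0.23 and 0.44 on the TG DSS arrays. Fabp6 was not high on the array where Slc10a2 was, and the 3 TG DSS arrays lay above all 3 WT DSS arrays.

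Fabp2 and Fabp1 encode fatty acid carriers of the enterocyte, Fabp2 the intestinal form and Fabp1 the form shared with the liver. Fabp2 was 0.25, -0.43 and 0.49 on the WT water arrays, 0.24, 0.05 and -0.40 on the TG water arrays, -0.95, -2.81 and 1.63 on the WT DSS arrays and -0.49, -0.05 and 0.15 on the TG DSS arrays. The WT DSS arrays were thus both the lowest and the highest of the 12: replicate 3 was 2.89-fold above the WT water mean, and replicates 1 and 2 were 2.08-fold and 7.5-fold below it. Across all genes, 6.78% were below -1 on WT DSS replicate 2, the array on which all 15 pan-epithelial markers were that low. The part of epithelial content in the Fabp2 and Slc10a2 values was not tested, and in such bulk samples fewer cells of a type and less RNA per cell cannot be told apart. Fabp1 lay between -0.19 and 0.30 on the 12 arrays, with 0.21 on WT DSS replicate 3 and its highest value on TG water replicate 3.

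Apoa1, Apoa4 and Mttp serve the export of fat. Apoa1 encodes the main protein of high-density lipoprotein, Apoa4 an apolipoprotein of chylomicrons, and Mttp the transfer protein that loads fat onto apolipoprotein B. Apoa1 was 0.09, 0.09 and 0.10 on the WT water arrays, -0.18, -0.06 and 0.73 on the TG water arrays, 0.02, 0.48 and -0.02 on the WT DSS arrays and -0.19, -0.16 and -0.08 on the TG DSS arrays. Apoa4 ranged from -0.12 to 0.40 and Mttp from -0.37 to 0.16 over the 12 arrays, and WT DSS replicate 3 was not the highest array for any of the 3 genes.

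Lct, Apoa1, Apoa4 and Fabp1 had their highest value on the same array, TG water replicate 3, at 0.65, 0.73, 0.40 and 0.30. The median of the 10 members there was 0.21, against 0.05 for all genes, which was the highest all-gene median of the 12 arrays. That array also had the most probe sets over 1 log2 unit from their median among the water arrays, 91. Apoa1, Apoc3, Apoa4 and Apoa5 are neighbours on chromosome 9, and Apoc3 and Apoa5 were 0.84 and 0.32 on that array. The 15 liver markers had a median of 0.47 on it, against -0.11 to 0.06 on the other arrays. The medians of bile acid handling, nutrient transporters and exocrine pancreas markers were also highest on that array, at 0.31, 0.24 and 0.23. The genes most like Lct, Apoa1, Apoa4 and Fabp1 over the 12 arrays were Calhm4, Otogl, Crx and Olfr1042. They were at 0.43, 0.24, 0.47 and 0.50 on TG water replicate 3. The part of liver transcripts or of any other source in the member values was not tested. Without absolute levels, whether these probe sets were dim could not be checked.

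In WT, the difference between DSS and water was positive for 5 of the 10 members, and 0 of 10 passed an adjusted p under 0.05 in limma (Benjamini-Hochberg over all genes), where 34 genes (0.171%) passed. Differences with their standard error (SE) were 1.16 ± 0.77 for Sis, 1.39 ± 0.73 for Alpi, 0.82 ± 0.86 for Slc10a2 and -0.81 ± 0.85 for Fabp2, with n = 3 per group. The other 6 lay between -0.29 (Lct) and 0.09 (Fabp1). The median of the 10 was -0.01 and that of all genes -0.04. At an unadjusted p under 0.05 the count was 0 of 10 members against 15.2% of all genes, and the arrays of the groups failed to overlap for 0 of 10 members against 16.1%.

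These differences depended on which WT DSS array was present. Without WT DSS replicate 3 they were -0.06 ± 0.08 for Sis, 0.26 ± 0.18 for Alpi, -0.36 ± 0.49 for Slc10a2 and -1.98 ± 0.49 for Fabp2. With replicate 2 left out instead they were 1.76 ± 0.76, 2.02 ± 0.69, 1.80 ± 0.67 and 0.24 ± 0.60 in the same order. With replicate 1 left out they were 1.79, 1.88, 1.02 and -0.69. The sign of the Sis and Slc10a2 differences thus came from replicate 3 and that of Fabp2 from replicate 2, and no member passed the adjusted threshold in any of these fits.

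**Figure D2:**
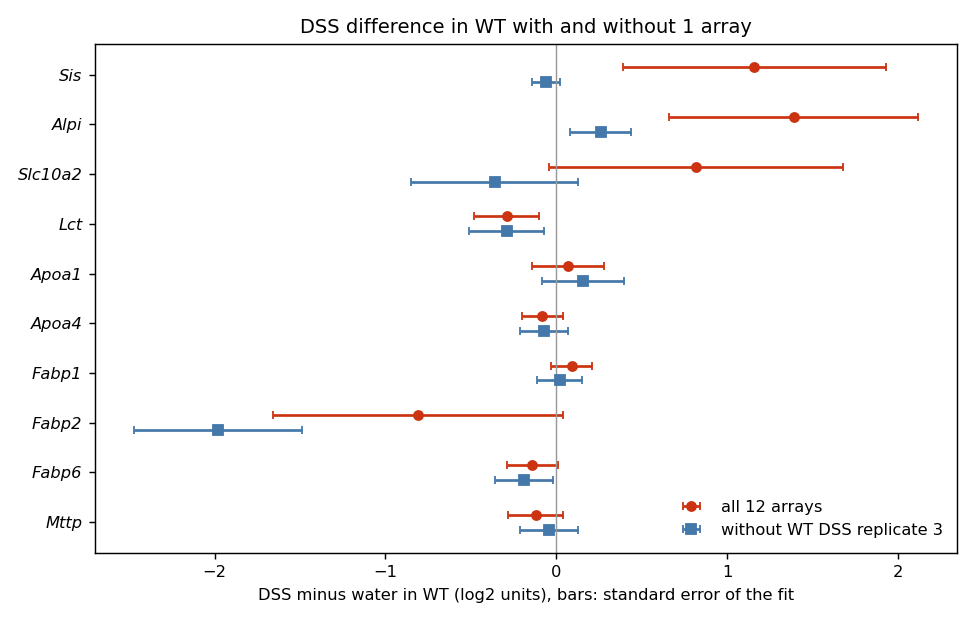
The x axis gives the difference DSS minus water in WT in log2 units for each of the 10 genes, with bars for the SE of the fit, from all 12 arrays (circles) and from 11 arrays without WT DSS replicate 3 (squares). Sis moves from 1.16 to -0.06, Alpi from 1.39 to 0.26, Slc10a2 from 0.82 to -0.36 and Fabp2 from -0.81 to -1.98.

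At water, TG and WT differed by between -0.14 (Fabp2) and 0.20 (Slc10a2) over the 10 members, and the arrays of the 2 genotypes overlapped for all 10. The median difference was 0.08 against 0.01 over all genes. None of the 10 passed, as none of all genes did (0%). At an unadjusted p under 0.05 the count was 0 members against 0.306% of genes, and non-overlapping arrays were seen in 0 members against 4.98%.

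In TG, DSS against water gave differences of -0.24 ± 0.73 for Alpi, -0.71 ± 0.86 for Slc10a2, -0.07 ± 0.77 for Sis, -0.09 ± 0.85 for Fabp2 and 0.27 ± 0.15 for Fabp6. The median of the 10 was -0.14 and that of all genes -0.01. The adjusted test called 0 of 10 members and 0% of genes, and the unadjusted one 0 members and 2.38% of genes. The groups did not overlap for Alpi, which was lower on the 3 DSS arrays, while 13.4% of all genes showed no overlap. The SE of these differences was drawn from all 12 arrays. Without WT DSS replicate 3 the same differences had an SE of 0.16 for Alpi, 0.44 for Slc10a2, 0.07 for Sis and 0.43 for Fabp2.

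Under DSS, TG minus WT was -1.20 ± 0.77 for Sis, -1.72 ± 0.73 for Alpi, -1.33 ± 0.86 for Slc10a2, 0.58 ± 0.85 for Fabp2 and 0.58 ± 0.15 for Fabp6. The adjusted test called 0 of 10 members and 8 genes (0.0401%). At an unadjusted p under 0.05 there were 2 of 10 members against 15.9% of genes. Arrays did not overlap for 3 members, Alpi and Apoa1 lower and Fabp6 higher in TG, against 19% of genes. Because the members were chosen by their values on these arrays, nothing is read from these counts. Without WT DSS replicate 3 the differences were 0.03 for Sis, -0.59 for Alpi, -0.15 for Slc10a2, 1.75 for Fabp2 and 0.64 for Fabp6, and without WT DSS replicate 2 that of Fabp2 was -0.47 and that of Fabp6 0.45. This comparison shares the WT DSS arrays with that of DSS and water in WT, so values of opposite sign in the 2 are not separate observations.

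The interaction, the DSS difference in TG minus that in WT, was -1.24 ± 1.09 for Sis, -1.62 ± 1.03 for Alpi, -1.53 ± 1.21 for Slc10a2, 0.72 ± 1.20 for Fabp2 and 0.41 ± 0.21 for Fabp6. It called 0 of 10 members and 0% of genes at an adjusted p under 0.05, and 0 members against 5.85% of genes at an unadjusted one. The interaction without WT DSS replicate 3 was -0.01 ± 0.11 for Sis, -0.50 ± 0.25 for Alpi, -0.35 ± 0.66 for Slc10a2, 1.89 ± 0.65 for Fabp2 and 0.46 ± 0.23 for Fabp6. With WT DSS replicate 2 left out it was -2.51 ± 0.90 for Slc10a2, -0.33 ± 0.81 for Fabp2 and 0.27 ± 0.19 for Fabp6, and without WT DSS replicate 1 it was -1.86 ± 1.04 for Sis.

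Other genes of small intestinal absorption were taken from 4 fixed lists with 69 measured genes. None passed in any of the 5 comparisons in the fit of all 12 arrays with equal weights. For DSS in WT, a fit with weights per array called 2 brush border enzymes, 1 gene of fat absorption, 1 of bile acid handling and 4 nutrient transporters. The equal-weight fit called, without WT DSS replicate 1, 5 genes of fat absorption and 4 nutrient transporters, without replicate 2, 1 of each, and without replicate 3, 2 of each and 2 brush border enzymes. On WT DSS replicate 3, 10 of the 69 (14.5%) were above 1 and 8 (11.6%) below -1, against 1.88% and 1.9% of all genes, and their median was 0. On WT DSS replicate 2, 10 (14.5%) were above 1 and 22 (31.9%) below -1, against 9.45% and 6.78% of all genes. The lists therefore held genes that were high and genes that were low on the same array.

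In the bile acid list, which holds 11 genes besides the members, 3 were above 1 on WT DSS replicate 3 and none below -1. They were Slc51a at 3.91 and Slc51b at 1.43, the subunits of the exporter that passes bile acids on to the blood, and Nr1h4 at 1.36, the bile acid receptor FXR. Slc51b and Nr1h4 were picked out after their values were seen. Fgf15, the ileal hormone that FXR induces, was -0.30 there, also named after its value was seen. Slc51a was at 3.91 on that array and between -0.35 and 0.31 on the other 11, and its difference between DSS and water in WT was 1.32 ± 0.81 (limma adjusted p = 0.468) and 0.05 ± 0.14 without WT DSS replicate 3. Uptake and export genes were thus high on the array on which the carrier Fabp6 was at -0.11. On WT DSS replicate 2, 4 of the 11 genes were below -1, among them Slc51b at -1.78 and Nr1h4 at -1.44, against 6.78% of all genes.

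**Figure D3:**
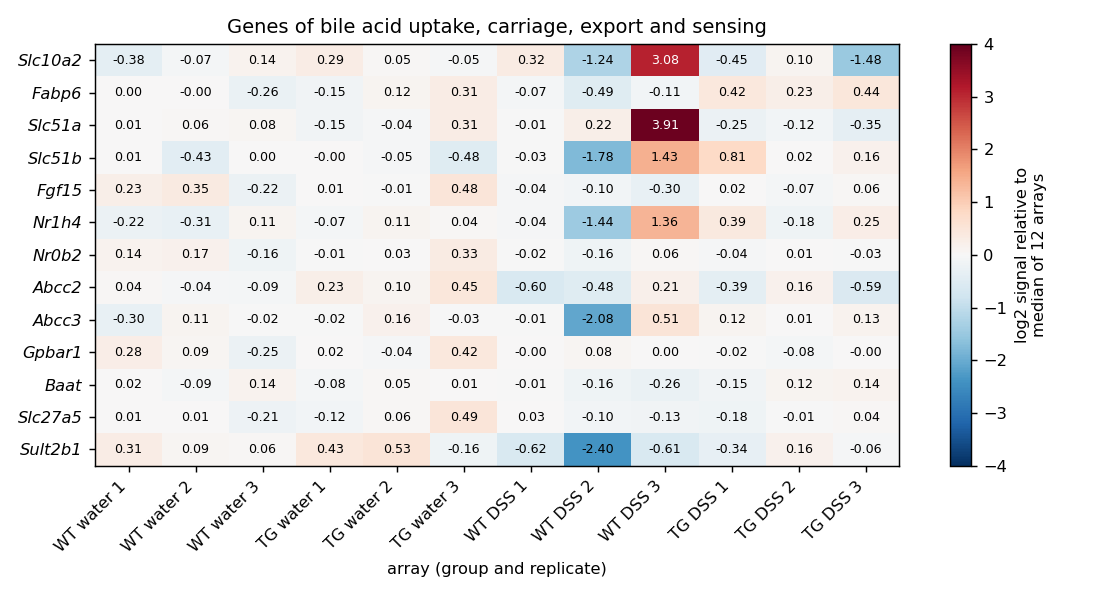
Rows are Slc10a2, Fabp6 and the 11 other measured genes of bile acid handling, columns are the 12 arrays, and colour and printed number give the log2 signal minus the gene's 12-array median. Slc10a2, Slc51a, Slc51b and Nr1h4 are high in the column of WT DSS replicate 3, at 1.36 to 3.91, while Fabp6 and Fgf15 are at -0.11 and -0.30.

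Of 14 further brush border enzymes, Xpnpep2, an aminopeptidase, was above 1 on WT DSS replicate 3 (1.86), and Mme and Ace, both peptidases, were below -1 (-1.55 and -1.32). The smallest p in WT belonged to Enpep, the glutamyl aminopeptidase, at 1.43 ± 0.37 (limma adjusted p = 0.134), and Dpp4, a dipeptidyl peptidase, at -1.60 ± 0.44 (limma adjusted p = 0.143), the latter -0.97 ± 0.21 without WT DSS replicate 2. Enpep was 1.53, 2.24 and 0.65 on the WT DSS arrays, so it was highest on replicate 2 and not on the array on which Sis and Alpi were high. The list median was -0.07.

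Of 20 nutrient transporters, 4 were above 1 and 3 below -1 on WT DSS replicate 3. Slc13a1, a sulfate transporter, was 5.18 there and between -0.18 and 0.30 on the other 11 arrays. Cubn, the receptor for vitamin B12 bound to intrinsic factor, was 3.45 there and between -0.15 and 0.28 elsewhere. Slc15a1, the peptide transporter, was -3.96, and Slc46a1, the folate transporter, -2.15. Also above 1 on replicate 3 were Slc3a1 and Slc11a2. Slc3a1 was 2.35, 0.27 and 3.20 on the WT DSS arrays, so it was high on replicate 1 as well. Slc11a2 was 0.18, -0.16 and 1.53 on them. Slc13a1, Cubn, Slc3a1 and Slc11a2 were singled out after their values were seen. Slc28a2, a nucleoside transporter, had the smallest p of the list in WT, at 0.85 ± 0.16 (limma adjusted p = 0.0631), and Slc15a1 was at -2.71 ± 0.66 (limma adjusted p = 0.114).

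Of 24 genes of fat and cholesterol absorption, 2 were above 1 on WT DSS replicate 3, Apob at 1.39 and Gpat3 at 1.61, and 3 were below -1, namely Abcg5 at -2.06 and Abcg8 at -1.66, which pair to form the sterol exporter, and Rbp2, a retinol carrier, at -1.37. All 3 were also below -1 on WT DSS replicate 2, at -2.82, -2.16 and -1.31. Apob encodes the apolipoprotein that Mttp loads, and it and Abcg5 were named after their values were seen. The differences between DSS and water in WT with the smallest p were -1.89 ± 0.39 for Rbp2 (limma adjusted p = 0.0765) and 0.96 ± 0.24 for Gpat3 (limma adjusted p = 0.114), the latter 0.63 ± 0.13 without WT DSS replicate 3. Rbp2 already differed at water, with 0.98, 0.98 and 1.35 on the WT arrays and -0.19, -0.35 and -0.41 on the TG arrays. TG minus WT at water was -1.42 ± 0.39, which was not called. The interaction was 2.38 ± 0.54 (limma adjusted p = 0.797).

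Genes of position along the gut differed on the same array. Isx, an intestinal homeobox factor, was 2.11, 0.54 and 4.74 on the WT DSS arrays and 1.75, -0.07 and 1.27 on the TG DSS arrays, against -0.22 to 0.07 at water, so it was above its water range on 5 of the 6 DSS arrays. Its difference in WT was 2.60 ± 0.85 (limma adjusted p = 0.201) and 1.46 ± 0.52 without WT DSS replicate 3. Of the 15 gut segment transcription factors 4 were above 1 on WT DSS replicate 3 and none below -1. Besides Isx these were Osr2 at 4.12, Cdx2 at 1.74 and Tbx3 at 1.32. Cdx2 is known to drive enterocyte genes, as are Hnf4a, Hnf4g and Gata4, which were -0.25, -0.02 and -0.24 there. On WT DSS replicate 2, 4 of the 15 were also above 1, with Tbx3 at 1.82 and Osr2 at 1.04. On that array 6 were below -1, with Cdx2 at -1.92. Across all genes 1.88% were above 1 on replicate 3. On replicate 2 9.45% were above 1 and 6.78% below -1. Of the factors named here, those other than Isx and Tbx3 were named after their values were seen.

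Hox genes mark position along the body axis, with the group 13 genes most posterior. Hoxb13 was -0.50, -2.65 and -5.36 on the WT DSS arrays and between -0.45 and 0.28 on the other 9. Of 16 posterior Hox genes 6 were below -1 on WT DSS replicate 3 and 1 above 1, and of 20 anterior Hox genes 6 were above 1 and 1 below -1. Across all genes 1.88% were above 1 on that array and 1.9% below -1. On WT DSS replicate 2, 3 posterior genes were below -1 and 1 above 1, and 1 anterior gene was on each side. Across all genes 9.45% were above 1 on replicate 2 and 6.78% below -1. The posterior median was -0.33 on replicate 2 and -0.21 on replicate 3. On WT DSS replicate 3 the colon surface absorption genes gave 3 of 15 above 1 and 6 of 15 below -1. Those above 1 were Slc9a3 at 1.94, Mettl7b at 1.66 and Cyp2c55 at 1.10. The lowest was Atp12a, the proton pump of the distal colon, at -4.73. Atp12a was at -3.18 on WT DSS replicate 2. All 15 of these genes had a difference below 0 between DSS and water in WT, with a median of -1.22, and 0 passed. All 15 were below -1 on WT DSS replicate 2, with a median of -2.31, the array on which all 15 pan-epithelial markers were that low too. The pan-epithelial markers also all had a difference below 0, with a median of -0.76. Leaving out WT DSS replicate 2 gave medians of -0.60 for the colon surface genes and -0.03 for the pan-epithelial markers, and with weights per array that of the colon surface genes was -0.75. Whether the tissue of WT DSS replicate 3 came from the same stretch of colon as that of the other arrays was not tested.

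**Figure D4:**
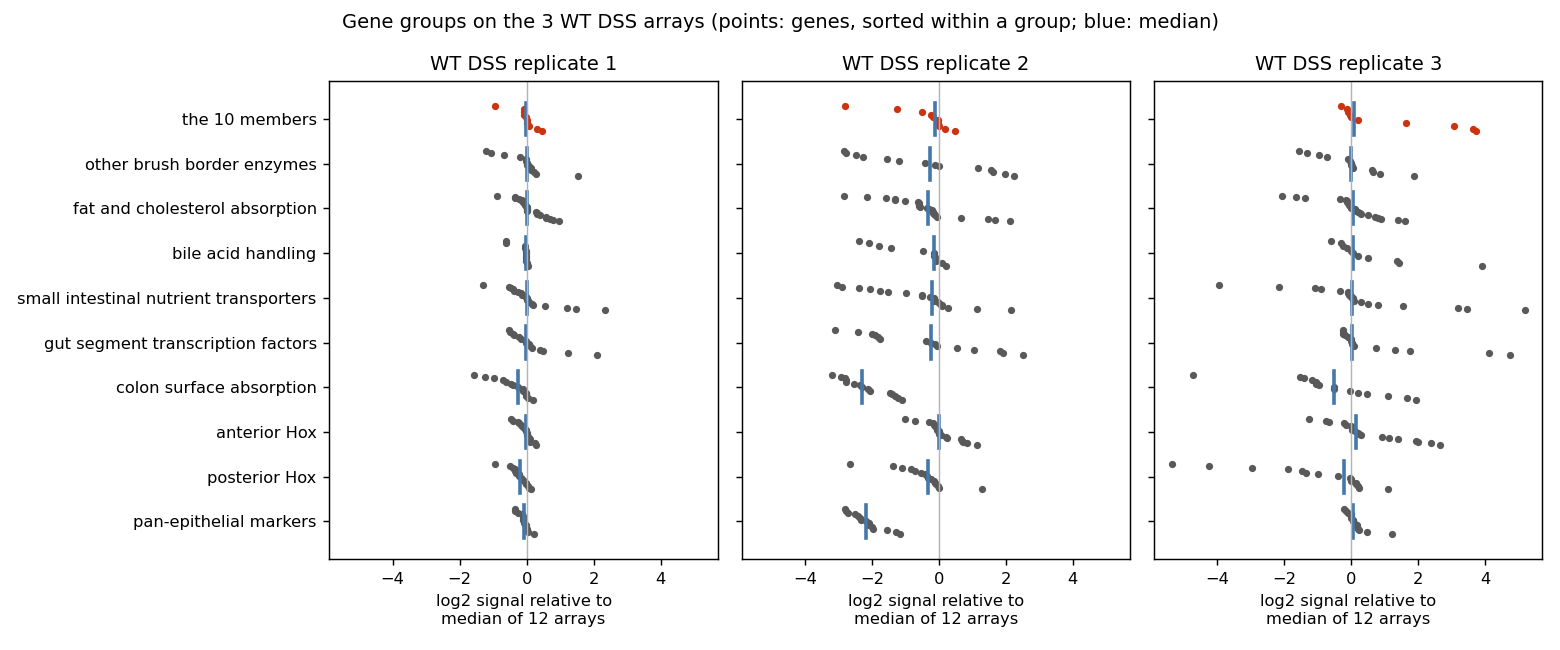
Each panel is 1 WT DSS array, each point a gene (red for the 10 members, grey for the genes of 9 fixed lists), the x axis its log2 signal minus the gene's 12-array median, and the blue bar the median of the list. On replicate 3 the posterior Hox genes reach -5.36 and the nutrient transporters 5.18 while pan-epithelial markers have a median of 0.06; on replicate 2 the pan-epithelial median is -2.18.

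Markers of other tissues on WT DSS replicate 3 had medians of 0.06 for the 15 liver markers and -0.02 for the 11 exocrine pancreas markers. The median of the 7 Paneth cell markers was 0.41, the highest of the 12 arrays (-0.17 to 0.13 on the others), and 3 of the 7 were above 1 and 2 below -1. Paneth cells are the antimicrobial cells of small intestinal crypts. The smooth muscle median was 0.15. The part of other tissues in the member values was not tested.

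Genes whose profile over the 12 arrays was most like the mean of the 10 members were Fmo5 (Pearson r = 0.978, Spearman rho = 0.916), Bace2 (r = 0.968), Xpnpep2 (r = 0.964), Cnnm1 (r = 0.958), Sh2d7, Grin3a, Acox2 and Fyb2. These are descriptions over 12 arrays that share groups, with no p. Without the 2 arrays farthest from the median of the member mean, WT DSS replicates 3 and 2, r was 0.814 for Fmo5, 0.470 for Bace2, 0.698 for Xpnpep2 and 0.199 for Fyb2. Fmo5, a flavin monooxygenase, was -0.05, -1.06 and 1.97 on the WT DSS arrays. The most similar gene was ccdc198 for Sis (r = 0.998, and 0.038 without the 2 arrays farthest from the Sis median), Tmigd1 for Alpi (r = 0.975, and 0.338 without the 2 farthest arrays), Guca2b for Slc10a2 (r = 0.931 and 0.859) and Tmem98 for Fabp2 (r = 0.989 and 0.953). Guca2b encodes uroguanylin, a gut peptide that regulates salt and water, and Tmigd1 was 3.71 on WT DSS replicate 3. The likeness was thus still high over the remaining arrays for Fabp2 and Slc10a2 and much lower for Sis and Alpi. WT DSS replicate 3 was left out for each of the 4, but the other array differed. It was TG water replicate 3 for Sis, WT DSS replicate 1 for Alpi, TG DSS replicate 3 for Slc10a2 and WT DSS replicate 2 for Fabp2. The Slc10a2 value kept WT DSS replicate 2, where Slc10a2 was -1.24 and Guca2b -1.13. The 4 values are therefore not over the same arrays.

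The 4 members that were high on WT DSS replicate 3 had lower correlations without that array. A drop follows from the selection, because these 4 were picked out by that array. Their 6 pairs had r between 0.50 and 0.97 over 12 arrays and between -0.17 and 0.41 over the 11 arrays without it. Sis and Alpi went from 0.97 to 0.07, and Slc10a2 and Fabp2, both below -1 on WT DSS replicate 2, from 0.65 to 0.41. Apoa4 and Lct had r = 0.83 with and without that array, and Apoa1 and Apoa4 0.72 and 0.71. These correlations are across arrays, with no p.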

How the data were processed

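The deposited table holds 28815 probe sets on 12 arrays. Per the submitters' processing notes, the authors summarised signals by RMA in Affymetrix Expression Console (versions: not given in the sources used here). Which base the deposited values have is not stated, and it was taken to be log2. They were found to be centred per probe set on the median over the 12 arrays, so they hold no absolute levels and no filter on dim probes was possible. The number of arrays limits the precision. Probe sets with exactly 1 symbol (21780) were averaged into 19935 genes, and the other 7035 were left out.

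The limma package, version 3.58.1, under R 4.3.3 modelled 1 mean for each group over the 12 arrays, with empirical Bayes moderation, two-sided p-values adjusted by Benjamini-Hochberg over all genes and a threshold of 0.05. The SE is the moderated one. On simulated data for DSS against water in WT with 19935 genes, 74.6%, 97% and 98.5% of genes changed by 1, 2 and 4 log2 units were recovered, with 10 false calls. Each simulated gene had 1 spread on all 12 arrays and 1 shift on all 3 arrays of a group. The real WT DSS arrays were less alike, with an SD for Sis of 2.12 against 0.05 to 0.07 in the other groups. These shares therefore do not tell how many changes would be found in the WT DSS group. Other steps ran in Python 3.11.15 (pandas 2.3.3, matplotlib 3.10.9).

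The members and the 16 gene lists were chosen with earlier results of these data known. All members were named. From each list up to 3 genes per comparison with the smallest p could be named, with Hoxb13 and Cldn2, the 8 genes most like the member mean and the 1 most like each member. Other genes were named after their values were seen, including the list genes given as above 1 or below -1 on WT DSS replicate 3. Same-numbered arrays of different groups were checked for pairing: the correlation of their deviations exceeded 0.1 in 1 of 18 pairs, so no block was used. That pair was WT DSS replicate 3 with TG DSS replicate 3, at 0.38. The other same-numbered arrays of WT DSS and TG DSS were at -0.18 and -0.37. What the arrays of that pair share was not tested. Motifs were searched in the RefSeq windows before each start site only, without the transcribed bases first planned, so that no untranslated sequence is printed. Alternatives were a fit on the compared groups only, a replicate block, weights per array or group, array centring, every probe set on its own, trend with robust fitting, a stricter threshold and the omission of arrays.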

Additional observations from a re-analysis of the deposited data

Results flagged for a closer look

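Alpi differed in direction between the genotypes. The 3 WT DSS arrays were 0.12 to 3.64 log2 units above the WT water mean, and the 3 TG DSS arrays were -0.44 to -0.07 from the TG water mean. The difference of the 2 changes was -1.62 ± 1.03, and the interaction fit in limma did not call it. Without WT DSS replicate 3 it was -0.50 ± 0.25, and DSS minus water in WT was 0.26 ± 0.18.

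Slc10a2 differed in direction between the treatments. The TG arrays were 0.06 to 0.40 from the WT mean at water and -2.20 to -0.62 from it under DSS. The difference was -1.53 ± 1.21, and the interaction fit in limma did not call it. The WT DSS arrays spanned -1.24 to 3.08 and overlapped the TG DSS arrays. TG minus WT under DSS was -0.15 ± 0.49 and the interaction -0.35 ± 0.66 without WT DSS replicate 3. Groups of 3 arrays were not searched for a single outlying array by Dixon's criterion.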

How the results depend on the processing

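No member passed in the equal-weight fit of all arrays, so there was no called member value that an alternative could reverse. Members called stayed at 0 in all 99 alternative fits over the 5 comparisons. The signs of the other called genes were not compared between fits. Genes called for DSS in WT (34) became 0 with only the compared groups, 0 with a replicate block, 0 with weights per group, 0 at an adjusted p under 0.01, 2 with trend and robust fitting, 79 with every probe set on its own, 754 with weights per array and 158 without WT DSS replicates 2 and 3, and ran from 0 to 919 with each array left out in turn. For TG against WT under DSS (8) the counts were 0 with only the compared groups, 0 with a replicate block, 0 with weights per group, 0 at an adjusted p under 0.01, 0 with trend and robust fitting, 4 with arrays centred, 273 with weights per array, 56 without WT DSS replicates 2 and 3 and 0 to 1166 with 1 array left out. With weights per array the count was 1971 for TG against WT at water, 4 for DSS in TG and 12 for the interaction. The interaction count was 22 without WT DSS replicates 2 and 3. That omission leaves 1 WT DSS array, which is assumed to vary like the other groups. The interaction count was 0 to 239 with 1 array left out. The median interaction of the members (-0.11) was -0.01 with weights per array and -0.20 to 0.01 with 1 array left out. Of 990 single-member values 22 moved by more than the spread between replicates, and of 99 member medians 2. The causes were not tested. Many of these values could not move. In this balanced design the compared groups alone, a replicate block, trend with robust fitting or weights per group give the same difference. Leaving out an array outside a comparison also leaves its difference unchanged. The spread pooled all 4 groups, so the wide WT DSS arrays raised the limit. These counts are thus no measure of stability.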
